A study of Rattus norvegicus with 7 samples.

Results

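The 3 gene models ENSRNOG00000043494, ENSRNOG00000026208 and ENSRNOG00000030708 lie in a short stretch of rat chromosome 3 and are 3 of the 29630 gene models counted in the vomeronasal epithelium. They were chosen by position, by their short length and by mean CPM (the count as a share of all assigned counts of a library, scaled alike in each), as models among the 10 highest over all samples. Their levels are therefore given as a description with no test. The samples were 7 male rats of the inbred strain LEW/Crl, 8 weeks old, with no treatment named in the labels, each flushed of blood before dissection and giving 1 library of polyA-selected RNA. All 7 formed a single group, so that no comparison between conditions exists and the rats supply the spread of each value.

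The vomeronasal organ is a paired tube in the nasal septum that detects pheromones and other signals carried in fluid. Its sensory neurons carry type 1 and type 2 vomeronasal receptors (V1R and V2R), supporting cells surround them, and glands fill the lumen with mucus through which ligands reach the receptors. Small secreted carrier proteins of the lipocalin family are abundant products of nasal and vomeronasal glands in rodents. The files give only Ensembl identifiers for the 3 models, and 0 of them could be matched to a symbol, so that no name, protein or promoter sequence is given and membership of any gene family was not tested. For the same reason markers of neurons, glands and blood could not be looked up by name. The labelled tissue could therefore not be checked against defining markers. The authors placed 224 models ahead of the rest of their annotation, called V1R models here: 114 of them carry V1R names, and the class of the other 110 is inferred from that layout. Of the 224, 118 (52.7%) passed the detection limit of 10 counts in 4 or more rats, as did 56.3% of all models.

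The libraries held 64085829 to 74924005 counts each, so that 1 CPM stood for 64.1 to 74.9 counts. Rat 7 had the lowest level of each of the 3 models and the highest shares of mitochondrial and V1R models. By Dixon's test only its level of ENSRNOG00000043494 stood apart from the other rats, and not the summed share of the 3 models or the levels of the other 2. Values without rat 7 are given where it moves a result.

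The 3 models had nearly the same exon lengths in the same order. Their selection used the total exon length but not its division into exons. In coordinates of build RGSC3.4, ENSRNOG00000026208 spans chromosome 3 from 4933911 to 4937063 on the plus strand, with 6 exons and 528 exon bases. ENSRNOG00000030708 spans 5309475 to 5312776 on the plus strand, with 7 exons and 558 exon bases. ENSRNOG00000043494 spans 5428658 to 5432041 on the minus strand, also with 7 exons and 558 exon bases. Read from the 5′ end, the exons of ENSRNOG00000030708 were 93, 131, 71, 111, 102, 27 and 23 bases long, and those of ENSRNOG00000043494 had the same 7 lengths in the same order. These 2 models thus face each other on opposite strands, 115.9 kb apart, with 0 annotated models between them. ENSRNOG00000026208 shares the leading 5 lengths (93, 131, 71, 111 and 102 bases) and ends in an exon of 20 bases. It lies 372.4 kb from ENSRNOG00000030708, with 8 other models in between.

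Intron lengths set the opposed pair closer to each other than to ENSRNOG00000026208. Between ENSRNOG00000043494 and ENSRNOG00000030708 the 6 introns differed by 0.490% to 4.58% of the longer one: the third, for example, had 833 and 797 bases, and the fifth 204 and 203. Against ENSRNOG00000043494, the 5 introns of ENSRNOG00000026208 differed by 8.46% to 35.2%, with 1030 bases in the third and 315 in the fifth. The exons of each of the 3 models summed to a multiple of 3 bases, as did those of 53.6% of all models, and all 3 models end in an exon of 20 or 23 bases. Reads that fall wholly outside the annotated exons, in any longer untranslated ends, were not counted for these models.

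Among all 29630 models, only these 3 held the leading 5 exon lengths in a row, and only ENSRNOG00000043494 and ENSRNOG00000030708 held all 7. The shorter run of 71, 111 and 102 bases occurred in 9 models, all 9 on chromosome 3 between 3836357 and 5432041. It is the part of the leading 5 lengths that 3 other models among the 10 highest also hold. This run was picked after the values were seen, so that what follows is a description. The number of abundant models among its holders is therefore no test of the run. The 9 include the 3 short models, which were chosen for being among the 10 highest of the tissue and from which the run was read. Of the 6 others, 3 were also among the 10 highest, a place that 0.0337% of all models hold by definition. These were ENSRNOG00000027963 (3934278–3937462) at 170183 ± 10567 CPM, ENSRNOG00000042407 (3858161–3861440) at 139975 ± 8239 CPM and ENSRNOG00000040188 (3892990–3894995) at 36124 ± 3307 CPM (SD, n = 7 each).

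The remaining 3 models with the run were not detected. ENSRNOG00000033020 (4862645–4867267, minus strand) had 4 to 12 counts per rat, 0.113 ± 0.0414 CPM (SD, n = 7). ENSRNOG00000033761 (4879048–4883485, plus strand) had 5.5 to 19.5 counts per rat, 0.160 ± 0.0725 CPM (SD, n = 7). ENSRNOG00000028095 (3836357–3841919, plus strand) had 0 to 3 counts per rat, no more than the 3 counts that a count of 0 allows. ENSRNOG00000033761 and ENSRNOG00000033020 lie just below ENSRNOG00000026208 on the chromosome, and their counts of up to 19.5 stood beside 738507 to 1057772 counts of that model. Part of these few counts was of reads shared with other places, since ENSRNOG00000033020 had a count that was not whole in 4 of 7 rats and ENSRNOG00000033761 in 5 of 7. The run was thus found both in very abundant and in nearly silent models of the same stretch.

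**Figure D1:**
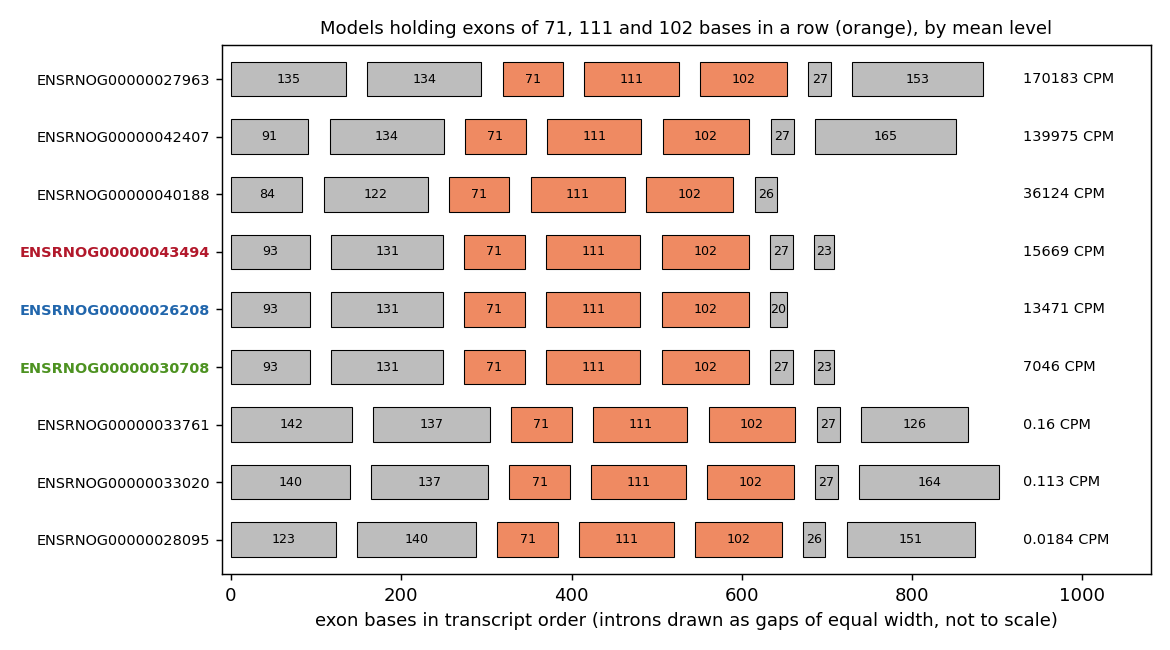
Exon lengths in bases, in transcript order, of the 9 models that hold exons of 71, 111 and 102 bases in a row (orange), ordered by mean CPM over 7 rats, which is printed at the right. Introns are drawn as gaps of equal width. The 3 short models (coloured names) share their leading 5 exon lengths, and the levels run from 0.0184 to 170183 CPM.

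Together the 3 short models took 3.62% ± 0.304 of all counts (SD, n = 7), between 3.08% in rat 7 and 3.93% in rat 4. Without rat 7 they took 3.71% ± 0.205 (SD, n = 6). They made up 9.45% ± 0.343 of the counts in the 6 abundant chromosome 3 models that hold the exon run (SD, n = 7). In a bulk sample, fewer cells of a type and less RNA per cell cannot be told apart.

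ENSRNOG00000043494 was the highest of the 3, at rank 5 of all models by CPM. From rat 1 to rat 7 its levels were 16935, 15432, 15425, 15903, 16266, 16594 and 13126 CPM. Rats 1 to 6 lay close together and rat 7 stood below all of them. The mean was 15669 ± 1255 CPM (SD, n = 7), and 16092 ± 618 CPM without rat 7 (SD, n = 6). The share in rat 7 was 1.31% of its counts, with a 95% Wilson score interval of 1.31% to 1.32%. Such intervals cover counting error only, and reads without molecular identifiers are not independent molecules.

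ENSRNOG00000026208, the member with 6 exons, held rank 6 of all models. Its levels from rat 1 to rat 7 were 13804, 13000, 12476, 15701, 13156, 14768 and 11394 CPM, with a mean of 13471 ± 1437 CPM (SD, n = 7). Rat 4 was the highest here and rat 7 again the lowest. The count of ENSRNOG00000043494 was 1.01 times that of this model in rat 4 and 1.12 to 1.24 times in the other rats.

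ENSRNOG00000030708 was the lowest of the 3 and held rank 9 of all models. Its levels from rat 1 to rat 7 were 7285, 6807, 6500, 7676, 7036, 7784 and 6236 CPM, with a mean of 7046 ± 579 CPM (SD, n = 7). Rat 6 was the highest and rat 7 the lowest. All 7 of its values lay below the lowest value of either other member. At the edge of the rule, the mitochondrial model ENSRNOG00000034234 held rank 10 at 6661 CPM, and ENSRNOG00000034593, a model of 331 bases with 1 exon on chromosome 8, was just outside at 6108 CPM.

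**Figure D2:**
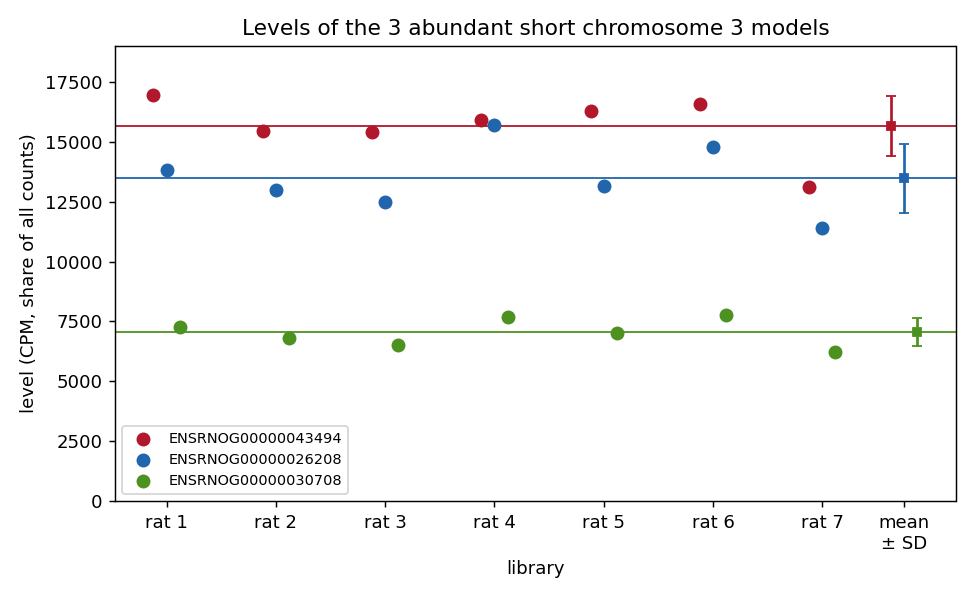
Level in CPM of each of the 3 models (colour) in each of the 7 rats, with the mean as a line and the mean ± SD (n = 7) at the right. ENSRNOG00000030708 stays below both others in every rat, and ENSRNOG00000043494 and ENSRNOG00000026208 nearly meet in rat 4, at 15903 and 15701 CPM.

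Levels of different models were compared per length, as RPKM (CPM per kilobase of exon). ENSRNOG00000043494 reached 28080 ± 2249 RPKM, ENSRNOG00000026208 25514 ± 2722 RPKM and ENSRNOG00000030708 12627 ± 1038 RPKM (SD, n = 7 each). On this scale they held ranks 4, 5 and 7 of all models. ENSRNOG00000043494 and ENSRNOG00000026208 overlapped across the rats: their RPKM ratio was 1.11 ± 0.0768, with ENSRNOG00000043494 higher in 6 of 7 rats and lower in rat 4, at 0.958. ENSRNOG00000043494 exceeded ENSRNOG00000030708, the model of the same exon lengths, 2.23 ± 0.121-fold, with a range of 2.07 to 2.37. ENSRNOG00000026208 exceeded ENSRNOG00000030708 2.02 ± 0.0713-fold, with a range of 1.93 to 2.16 (SD, n = 7 each).

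The neighbours of the members on the chromosome had far lower levels. The members were chosen for high levels, so that a gap to their neighbours follows in part from the rule. Within 500 kb of a member lay 47 other models, and 36 of these passed the detection limit. This is 76.6% (95% Clopper-Pearson interval 62.0% to 87.7%), beside 56.3% among all models. The interval treats the models as independent, though some of them overlap on the chromosome, and the difference was not tested. The detected neighbours had a median of 13.2 RPKM, against 6.29 RPKM over all detected models. The highest of them, ENSRNOG00000005071 (5808076–5810542), had 297.1 RPKM, so that the lowest member lay 42.5-fold above the highest neighbour.

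The model nearest to ENSRNOG00000026208 was ENSRNOG00000030476 (4930753–4931423), a single exon on the same strand and 2.49 kb upstream. It had 16.4 ± 0.659 RPKM (SD, n = 7), and its counts were not whole in 7 of 7 rats, so that reads shared with other places were part of its level. On the other side, 89.6 kb away, ENSRNOG00000004880 (5026632–5028491, minus strand) had 0.576 ± 0.111 RPKM. ENSRNOG00000030708 was preceded at 39.2 kb by ENSRNOG00000039906 (5253078–5270252) with 39.4 ± 3.13 RPKM, and ENSRNOG00000043494 was followed at 147.9 kb by ENSRNOG00000032782 (5579933–5596849) with 9.22 ± 1.03 RPKM (SD, n = 7 each). A single neighbour had several exons and a length within 100 bases of the members' range: ENSRNOG00000005840 (5908375–5915974, 6 exons, 547 bases), at 11.5 ± 1.32 CPM (SD, n = 7). Within 500 kb, no neighbour other than a member came near the level of the members. The 3 other abundant models with the exon run lie beyond this window. ENSRNOG00000027963, ENSRNOG00000042407 and ENSRNOG00000040188 had 232173, 199679 and 70008 RPKM.

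**Figure D3:**
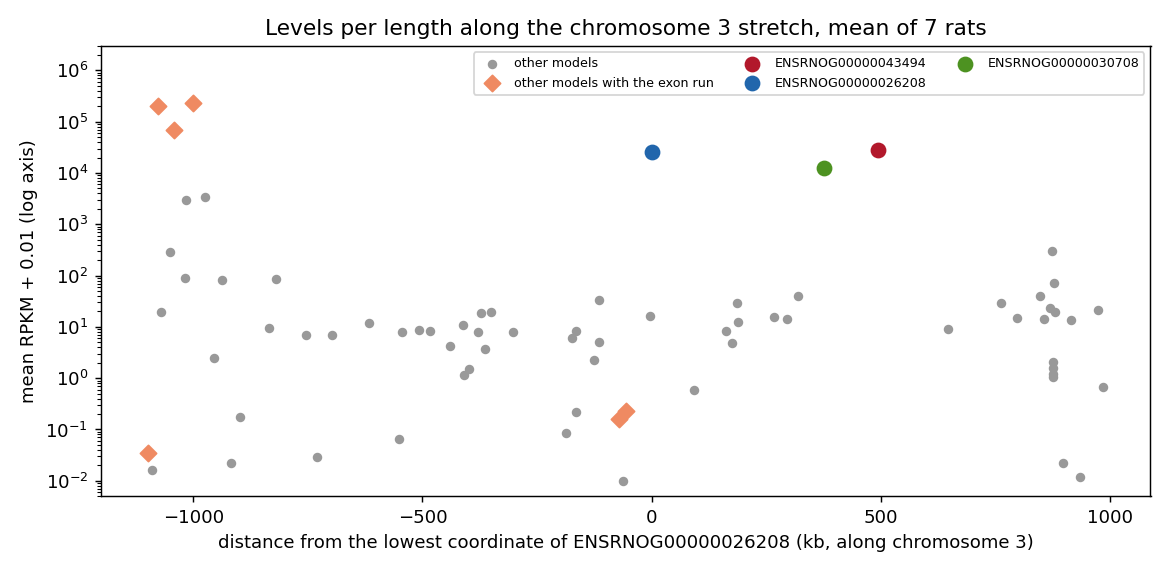
Mean RPKM over 7 rats plus 0.01 (log axis) of chromosome 3 models by their distance in kb from the lowest coordinate of ENSRNOG00000026208. Coloured points are the 3 short models, orange diamonds the 6 other models with the exon run and grey points all others. The 3 short models lie at 12627 to 28080 RPKM and none of the grey points within 500 kb of them exceeds 297.1 RPKM.

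Because the members resemble each other in structure, shared reads were examined. The authors counted a read that mapped to several places as a fraction at each, so that a count that is not whole shows shared reads, while a whole one does not show their absence, since fractions can add up to a whole number. All 3 members had a count that was not whole in at least 1 rat, as had all of the 10 highest models, which include them. The same held for 30.8% of all detected models and 51.8% of the 1039 models of at least 100 CPM. Counts were not whole in 6 of 7 rats for ENSRNOG00000043494 and ENSRNOG00000026208 and in 4 of 7 for ENSRNOG00000030708. No member was so in all 7 rats, as were 4.21% of detected models, 10.7% of those of at least 100 CPM and 3 of the 10 highest. No other model had the same counts as a member in every rat. How many of their reads were shared, and with which models, was not tested, as the files give only the sums.

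The coefficient of variation of CPM was 8.01% for ENSRNOG00000043494, 10.7% for ENSRNOG00000026208 and 8.22% for ENSRNOG00000030708 (n = 7). Counting error was a small part of this, since these values are 83.3, 102.7 and 57.2 times the counting error of the mean counts. Their SDs of log2 CPM were 0.12, 0.15 and 0.12, beside a median of 0.10 over the 1039 models of at least 100 CPM. Of those models 63.1%, 73.8% and 62.4% had a smaller SD than the respective member. Without rat 7 the SD of ENSRNOG00000043494 dropped to 0.06 and only 25.02% of models had a smaller one. The SDs of ENSRNOG00000026208 and ENSRNOG00000030708 fell less, to 0.12 and 0.10, with 70.9% and 61.2% of models below them. Where the members stood depended on the scale and on the models compared. On a total without the 10 highest models, their SDs were 0.19, 0.21 and 0.18, and 85.5%, 90.8% and 84.4% of models had a smaller one. Among all detected models, on the total of all counts, 40.9%, 53.3% and 39.5% had a smaller SD.

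Of the summed counts of the 3 models, ENSRNOG00000043494 made up 43.3% ± 1.58, ENSRNOG00000026208 37.2% ± 1.35 and ENSRNOG00000030708 19.5% ± 0.466 (SD, n = 7 each). Rat 4 differed most, with 40.5% for ENSRNOG00000043494 and 39.97% for ENSRNOG00000026208, where the other rats had 42.4% to 44.8% and 36.1% to 37.7%. A member's own count is part of the sum behind its share, which can lower the variation of the share by construction. The coefficients of variation of these shares were 3.65%, 3.64% and 2.39%, below those of the levels. Without rat 7 this no longer held for ENSRNOG00000043494, at 3.92% for its share and 3.84% for its level, whereas ENSRNOG00000026208 had 3.98% and 8.78% and ENSRNOG00000030708 had 1.75% and 6.95%. The count ratio of ENSRNOG00000026208 to ENSRNOG00000030708 varied least, with a coefficient of variation of 3.53%, beside 5.43% for ENSRNOG00000043494 to ENSRNOG00000030708 and 6.95% for ENSRNOG00000043494 to ENSRNOG00000026208.

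Whether the members rose and fell together from rat to rat was tested on log2 CPM across rats, which their selection by mean level did not use. The members may share reads with each other and with the other models that hold the exon run. Shared reads would tie such counts together, and their part in the correlations below was not tested. ENSRNOG00000026208 and ENSRNOG00000030708 did so (Pearson r = 0.96, two-sided exact permutation p = 0.000992, adjusted over 8 relations 0.00794; Spearman rho = 0.96, exact permutation p = 0.00278, adjusted 0.0222). Without the 2 rats farthest from the median, rats 4 and 7, r was 0.99 (exact permutation p = 0.00833, the smallest that 5 rats gave here), and without rat 7 alone it was 0.94 (exact permutation p = 0.00833).

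The opposed pair of equal exon lengths, ENSRNOG00000043494 and ENSRNOG00000030708, had r = 0.79 (exact permutation p = 0.0153, adjusted 0.0407) and rho = 0.82 (exact permutation p = 0.0341, adjusted 0.0884). Without rats 1 and 7, the 2 farthest from the median, r was 0.77 (exact permutation p = 0.125). The call also ended without rat 7 alone (r = 0.65, exact permutation p = 0.171) and without rat 6 (r = 0.77, exact permutation p = 0.0611). On this scale the call thus rests on few rats, although r changed little without rat 6. Over all 7 rats the pair passed, unadjusted, on the total without the 10 highest models (r = 0.91, exact permutation p = 0.00397). It also did with edgeR's TMM scaling (r = 0.91, exact permutation p = 0.00397) and with DESeq2 size factors (r = 0.91, exact permutation p = 0.00357). These scalings change only the divisor of the same counts, so they are not separate evidence. None of them was also run without rat 7, so whether the call rests on that rat there was not tested.

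ENSRNOG00000043494 and ENSRNOG00000026208 had r = 0.74, which did not pass the test (exact permutation p = 0.0556, adjusted 0.0889; rho = 0.75, exact permutation p = 0.0663, adjusted 0.0884). Without rats 1 and 7 r was 0.54 (exact permutation p = 0.292). It was 0.90 without rat 4 (exact permutation p = 0.00972) and 0.41 without rat 7 (exact permutation p = 0.399). The pair passed, unadjusted, on the total without the 10 highest models (r = 0.87, exact permutation p = 0.0113), with edgeR's TMM scaling (r = 0.87, exact permutation p = 0.0115) and with DESeq2 size factors (r = 0.88, exact permutation p = 0.0119). Those runs used all 7 rats and were not repeated without rat 7. The closer intron lengths of the opposed pair were thus not matched by the highest correlation, but the differences between the 3 correlations were not tested.

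**Figure D4:**
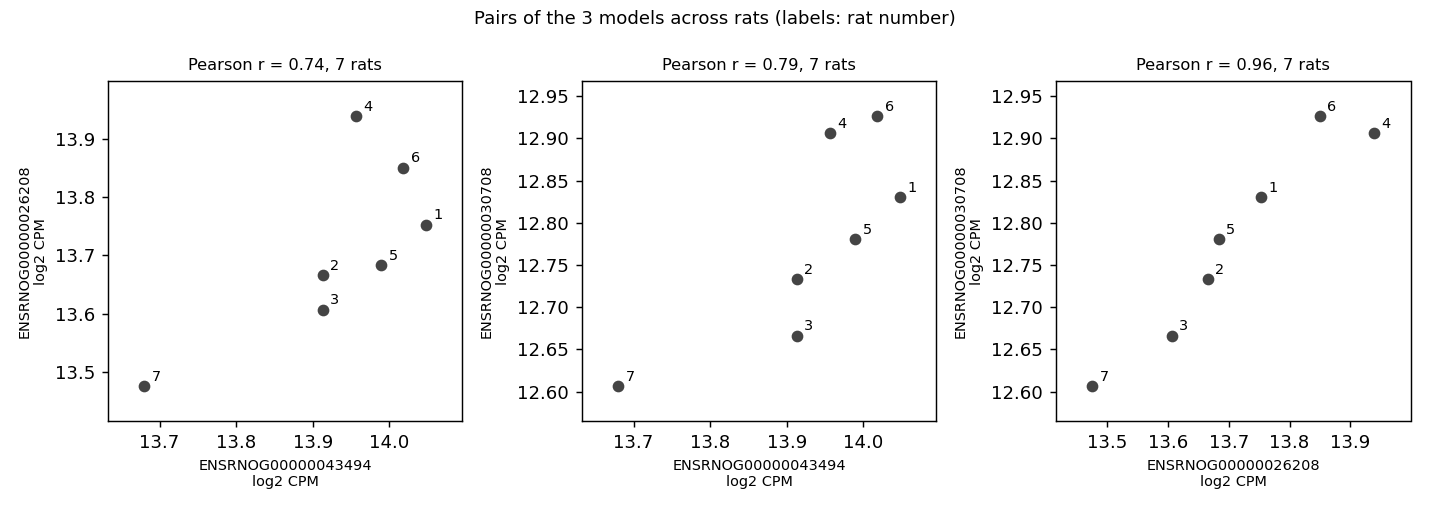
Log2 CPM of each pair of the 3 models in the 7 rats, with the rat number beside each point and Pearson's r above each panel (0.74, 0.79 and 0.96). Rat 7 is lowest on both axes in every panel, and rat 4 lies off the run of the other points for ENSRNOG00000043494 and ENSRNOG00000026208.

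The summed level of the 3 models was then set against other transcripts across the rats. It went with the sum of the 3 other abundant chromosome 3 models that hold the exon run (r = 0.90, exact permutation p = 0.00913, adjusted 0.0365; rho = 0.82, exact permutation p = 0.0341, adjusted 0.0884). Those models took 30.2% of counts in rat 7 and 33.7% to 36.5% in the others. Without rats 4 and 7 the relation did not pass (r = 0.67, exact permutation p = 0.217), nor did it without rat 7 alone (r = 0.69, exact permutation p = 0.115), so that it rests on rat 7. On a total that leaves out the 10 highest models r over all 7 rats was 0.96 (exact permutation p = 0.00179). That run was not repeated without rat 7. Every pair of the abundant models with the run had a higher r on that total, which leaves all of them out. Singly, and as a description over the same 7 libraries, ENSRNOG00000042407 correlated at 0.95 with ENSRNOG00000043494, at 0.68 with ENSRNOG00000026208 and at 0.71 with ENSRNOG00000030708, which became 0.81, 0.27 and 0.42 without rat 7. For ENSRNOG00000027963 the values in the same order were 0.92, 0.77 and 0.75, and 0.42, 0.58 and 0.63 without rat 7. For ENSRNOG00000040188 they were 0.91, 0.89 and 0.89, and 0.64, 0.80 and 0.84 without rat 7. Which member followed these models most closely thus depended on rat 7 for ENSRNOG00000027963 and ENSRNOG00000040188.

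Against the V1R models the sum had a negative correlation (r = -0.78, exact permutation p = 0.0341, adjusted 0.0683; rho = -0.79, exact permutation p = 0.048, adjusted 0.0884), which did not pass after adjustment. The V1R models took 0.0402% of counts in rat 6 and 0.0669% in rat 7. Without rats 4 and 7 r was -0.99 (exact permutation p = 0.00833), without rat 7 alone -0.69 (exact permutation p = 0.129), and on a total without the 10 highest models -0.64 (exact permutation p = 0.115). A negative value was the usual one on this scale: of 8922 models of at least 10 CPM, 88.2% correlated negatively with the sum, the median r was -0.69, and 32.9% lay below the V1R models. On the total without the 10 highest models the median was -0.05 and 13.7% lay below.

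The other 3 relations did not pass the test on the total of all counts. The sum had r = 0.71 with the 2 abundant models of chromosomes 1 and 4 (exact permutation p = 0.0722, adjusted 0.0963; rho = 0.75, exact permutation p = 0.0663; r = 0.63 without rats 4 and 7). This relation passed, unadjusted, on the total without the 10 highest models (r = 0.88, exact permutation p = 0.00774), with TMM (r = 0.88, exact permutation p = 0.00635) and with DESeq2 size factors (r = 0.89, exact permutation p = 0.00615). These runs, too, used all 7 rats and were not repeated without rat 7. The sum had r = -0.48 with the mitochondrial genome models (exact permutation p = 0.278, adjusted 0.317; rho = -0.43, exact permutation p = 0.354), which became 0.68 without rats 4 and 7 and 0.21 without rat 7. On the total without the 10 highest models, with TMM and with DESeq2 size factors the mitochondrial r over all 7 rats was -0.087, -0.049 and -0.021. With the library total it had r = -0.14 (exact permutation p = 0.786, adjusted 0.786; rho = -0.21, exact permutation p = 0.662), which became -0.92 without rats 4 and 7 (exact permutation p = 0.0667) and -0.89 without rat 7 (exact permutation p = 0.0264). Among rats 1 to 6, lower summed levels thus went with deeper libraries, in an unadjusted result. The library total is itself the divisor of CPM, so that the compared values were not independent. The part of depth in the results was not tested further.

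**Figure D5:**
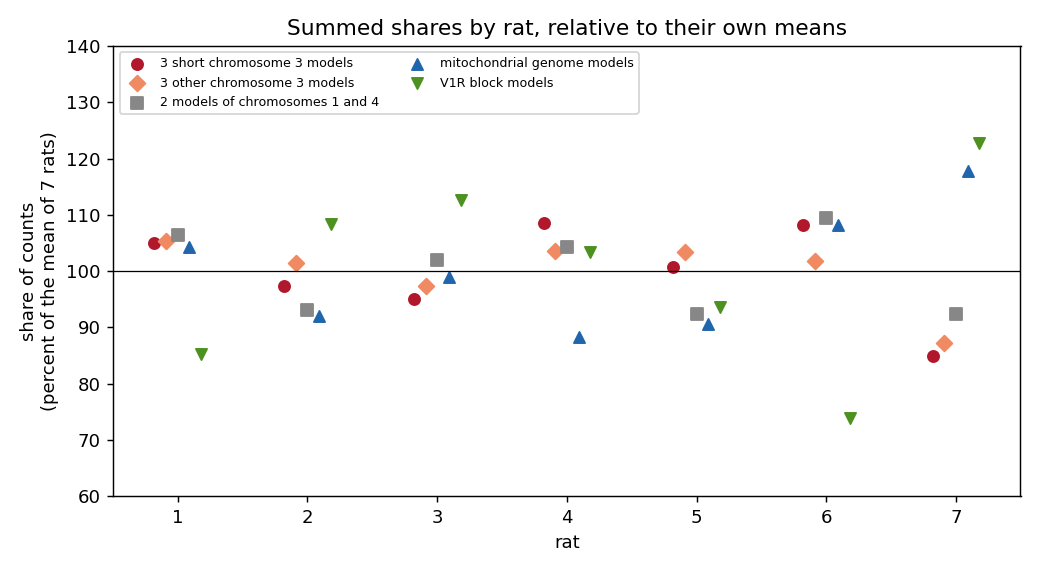
Share of counts of 5 sets of models in each rat, as a percentage of the set's own mean over 7 rats. In rat 7 both sets of chromosome 3 models are at their lowest (3.08% and 30.2% of counts) while mitochondrial models (2.44%) and V1R models (0.0669%) are at their highest.

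The models whose levels followed each member most closely were ranked by Pearson's r of log2 CPM over the 7 rats, among 8924 other models of at least 10 CPM. The points share libraries and depth, and r is given as a description. For ENSRNOG00000026208 the closest was ENSRNOG00000030708, at r = 0.96, and the converse held as well. Both also had ENSRNOG00000027821 (chromosome 3, 3996496–3998850, 7 exons, 67.7 ± 5.65 CPM, SD, n = 7) among their closest 5, at 0.93 and 0.96. ENSRNOG00000027821 is a further model of the same stretch, and it holds exons of 111 and 102 bases in a row, as 45 models of the annotation do. The closest 5 of ENSRNOG00000026208 also included ENSRNOG00000042169 (chromosome 3, 3916619–3916978, 14.5 CPM) at 0.92, ENSRNOG00000010085 on chromosome 15 (129.96 CPM) at 0.93 and ENSRNOG00000014645 on chromosome 18 (80.7 CPM) at 0.93. Those of ENSRNOG00000030708 also included ENSRNOG00000003649 on chromosome 13 (448.7 CPM) at 0.94, ENSRNOG00000003666 on chromosome 14 (13.1 CPM) at 0.93 and ENSRNOG00000038200 on chromosome 18 (17.5 CPM) at 0.91. Counts were not whole in 4 of 7 rats for ENSRNOG00000042169 and for ENSRNOG00000003666, and in 1 of 7 for ENSRNOG00000027821. Reads shared with other places were thus part of these 3 levels, and their part in the correlations was not tested.

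ENSRNOG00000043494 had different company. Its closest 5 were ENSRNOG00000014365 on chromosome 5 (118.2 CPM) at r = 0.99, ENSRNOG00000002473 on chromosome 13 (34.8 CPM) at 0.98, ENSRNOG00000015567 on chromosome 9 (18.6 CPM) at 0.97, and ENSRNOG00000013407 (28.6 CPM) and ENSRNOG00000029588 (821.7 CPM), both on chromosome 1 and both at 0.95. ENSRNOG00000042407 came next, in place 6, while ENSRNOG00000030708 was in place 76 and ENSRNOG00000026208 in place 99. Among the closest 5, counts were not whole in 6 of 7 rats for ENSRNOG00000029588 and in 2 of 7 for ENSRNOG00000015567. Positive correlations of at least 0.9 were few, with 27 models (0.303%) for ENSRNOG00000043494, 8 (0.0896%) for ENSRNOG00000026208 and 10 (0.112%) for ENSRNOG00000030708. On the total without the 10 highest models these counts were 181, 73 and 91, so that the number of close models depended on the scale. Negative correlations of at least 0.9 in size were more common on the total of all counts, with 949, 175 and 369 models. The median r there was -0.71, -0.59 and -0.62, and -0.05, -0.04 and -0.03 without the 10 highest models. Without rat 7, 1, 3 and 3 of the closest 5 were still among the closest 5, in the order ENSRNOG00000043494, ENSRNOG00000026208 and ENSRNOG00000030708, and 95, 7 and 8 models had a correlation of at least 0.9.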

How the data were processed

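RNA was sequenced from 7 rats as stranded single-end reads, per the labels' protocols. Per the submitters' processing notes the tools were STAR 2.7.1a and featureCounts 1.6.5, whereas the file headers name featureCounts 1.6.3. Each library was deposited as estimated counts, per the file headers: reads on exons of the matching strand, with no minimum mapping quality and multi-mapped reads counted as fractions, on Ensembl release 67 of RGSC3.4 extended by the authors. They are not scaled. The length column gives exon bases.

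Here each count was divided by its library's total (CPM) and by exon length (RPKM). Relations between models were tested on log2 CPM by two-sided exact permutation over rats (threshold 0.05), adjusted over 8 relations by Benjamini-Hochberg. A count was called whole within 0.001. Python 3.11.15 with scipy 1.17.1 was used; edgeR 4.0.16 (TMM, dispersions) and DESeq2 1.42.0 (size factors), on rounded counts, served as alternatives. The ranking, permutation and dispersion steps were tested on simulated data. Every pair of libraries differed by more than counting noise (chi-square at least 11.4 times its degrees of freedom). The named models were the 3 members, the 10 highest and the 2 at the edge of the rule, the 5 most alike to each member, nearest neighbours and multi-exon neighbours of like length. Of 29630 identifiers 0 matched the 47357 genes of the RefSeq GRCr8 table, so that the planned marker lists were not used. The members and lists were chosen with earlier results of these data known, and the models with the exon run were chosen after the values were seen.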

Additional observations from a re-analysis of the deposited data

Results flagged for a closer look

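Of 10 values of the 3 models tested for a rat far from the others (Dixon's test at its 95% critical value), 3 stood apart, where chance flags about 1 in 20. All 10 derive from the counts of the same 3 models and are not independent, so whether 3 exceeds chance was not tested. The level of ENSRNOG00000043494 in rat 7, 13126 CPM, lay below the other 6 rats (15425 to 16935 CPM), and its distance from the closest value was 0.603 of the full spread. The count ratio of ENSRNOG00000026208 to ENSRNOG00000030708 was 2.05 in rat 4 and 1.83 to 1.92 in the others, a distance of 0.578 of the full spread. The share of ENSRNOG00000026208 in the summed counts of the 3 models was likewise highest in rat 4, at 39.97% against 36.1% to 37.7%, also 0.578 of the full spread. The last 2 values share the counts of ENSRNOG00000026208 and are not independent.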

How the results depend on the processing

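No paired analysis was possible because all 7 rats formed 1 group. With a total that leaves out the 10 highest models, mean levels were 28929, 24882 and 13006 CPM for ENSRNOG00000043494, ENSRNOG00000026208 and ENSRNOG00000030708, by construction of the smaller total. In the same order, the percentages of models with a smaller SD became 85.5, 90.8 and 84.4 there, 86.3, 91.0 and 84.7 with TMM, 87.1, 92.1 and 85.9 by edgeR's coefficient of variation, and 40.9, 53.3 and 39.5 among all detected models; for ENSRNOG00000030708 it was 58.7 among models of at least 10 CPM. The percentages of models with r of at least 0.9 became 2.03, 0.818 and 1.02 on the total without the 10 highest, where 3, 2 and 2 of the closest 5 models were kept; by Spearman's rho 1, 3 and 3 were. Without rat 7, added after the data were seen, they were 1.06, 0.0784 and 0.0896. With a minimum of 3 counts, 89.4% of neighbours were detected, beside 61.9% of all models, and within 100 kb 62.5% (5 of 8) were at 10 counts. ENSRNOG00000043494 and ENSRNOG00000026208 passed on the total without the 10 highest models, with TMM and with DESeq2 size factors (r = 0.873, 0.874 and 0.876), as did the sum with the 2 models of chromosomes 1 and 4 (r = 0.882, 0.884 and 0.887). None of these runs was repeated without rat 7. The V1R relation lost its unadjusted call under these 3 scalings (r = -0.643, -0.648 and -0.640). Without the 2 farthest rats, the opposed pair (r = 0.765) and the sum with the other chromosome 3 models (r = 0.669) lost theirs, with fewer rats, and the mitochondrial relation reversed to 0.682; without rat 7 it was 0.208. Apart from the smaller number of rats, the cause of these changes was not tested.

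With each rat left out, mean levels ran from 15458 to 16092, 13100 to 13817 and 6923 to 7181 CPM, and percentages with a smaller SD from 25.02 to 66.8, 63.0 to 81.5 and 56.5 to 70.3, in the order above. Pairwise r ran from 0.412 to 0.9003 for ENSRNOG00000043494 and ENSRNOG00000026208, 0.647 to 0.846 for ENSRNOG00000043494 and ENSRNOG00000030708, and 0.939 to 0.982 for ENSRNOG00000026208 and ENSRNOG00000030708, which passed, unadjusted, in every alternative run. For the sum, r ran from 0.687 to 0.941 with the other chromosome 3 models, 0.629 to 0.826 with the models of chromosomes 1 and 4, -0.931 to -0.690 with V1R models, -0.740 to 0.208 with mitochondrial models and -0.887 to -0.00727 with the library total. The V1R relation kept its unadjusted call only without rat 4, and the sum with the models of chromosomes 1 and 4 gained one without rat 3 (r = 0.770) and without rat 5 (r = 0.826).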
